A study of Mus musculus with 9 samples.

Results

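The Ms4a genes encode small proteins of hematopoietic and other cell membranes, and 9 of them were followed here on 9 mouse Affymetrix arrays: Ms4a1, Ms4a3, Ms4a4b, Ms4a4c, Ms4a4d, Ms4a6b, Ms4a6c, Ms4a6d and Ms4a7. These are 9 of the 12394 genes that a probe set of the values table names. All 14 probe sets annotated to 1 of these genes alone were used, of 22690 on the array. The family was chosen by its signals on these same 9 arrays, in all 3 comparisons, so its levels and differences are given as a description, with no test. L-GMP-derived cells (3 arrays) are cells propagated in vitro from L-GMP. L-GMP (3 arrays) are GMP-like cells isolated from leukemic mouse bone marrow, in a study of the MLL-AF9 fusion. GMP (3 arrays) are normal granulocyte-macrophage progenitors of mouse bone marrow, the committed precursors of granulocytes and macrophages. Strain, age, the vector that carried the fusion and the culture agents are not stated in the labels. The arrays called L-GMP-derived are titled AKLG with L-GMP as their source; the design text leaves only the propagated cells for them, and this placement by elimination limits every statement about them. Per the labels, about 50000 sorted cells went into each RNA isolation and about 50 ng of total RNA into each labelling. Whether the replicate arrays stand for different animals or cultures is not stated, so SDs, SEs and p-values measure the spread between arrays, which may be technical.

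MS4A proteins cross the membrane several times and have both ends inside the cell. MS4A1 is CD20 of B cells, MS4A2 is the beta chain of the high-affinity IgE receptor, and many other members associate with immune receptors or adaptors and modulate their signals. In myeloid cells Ms4a3 is known as a gene of granulocyte-monocyte progenitors, and Ms4a4c, Ms4a6b, Ms4a6c, Ms4a6d and Ms4a7 as genes of monocytes and macrophages, although Ms4a4b and Ms4a6b are also known from T cells. The mouse genes lie together on chromosome 19, where the Ms4a4 and Ms4a6 groups are products of local gene duplication.

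Ms4a6b and Ms4a6c had signals of 1883 to 3920.1 in L-GMP and GMP and of 21.9 to 324 in L-GMP-derived cells. Ms4a4b and Ms4a4c were above the filter for dim signals in L-GMP and GMP and under the background floor on all 3 L-GMP-derived arrays by their brightest probe set. Ms4a3 and Ms4a7 were above the filter in all 3 groups, with differences of less than 2-fold. Ms4a1, Ms4a4d and Ms4a6d did not pass the filter. In bulk samples such as these, fewer cells that express a gene and less RNA per cell cannot be told apart.

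The windows around the start sites of 5 members are shown because the 4 genes that were low in L-GMP-derived cells form 2 pairs of close relatives, while Ms4a3, in the same cluster, kept its signal. Each window runs from 250 bases before to 50 bases after the RefSeq start site, 5′ to 3′ on the gene's strand, from RefSeq's annotation of GRCm38.p6; 7 of the 9 members had such a window, and Ms4a1 and Ms4a6d had none. In the Ms4a6 and Ms4a4 pairs, capitals mark the longest stretch that is identical in both windows of the pair. In Ms4a3, capitals mark a match to the C/EBP-type motif described below.
Ms4a6c (chr19:11469118-11469417, plus strand): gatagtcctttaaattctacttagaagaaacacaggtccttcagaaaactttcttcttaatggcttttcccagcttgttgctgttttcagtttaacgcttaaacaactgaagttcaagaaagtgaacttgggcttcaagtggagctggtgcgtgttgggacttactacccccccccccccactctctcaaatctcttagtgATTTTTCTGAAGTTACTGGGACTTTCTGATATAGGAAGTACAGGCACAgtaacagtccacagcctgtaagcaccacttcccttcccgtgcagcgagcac
Ms4a6b (chr19:11518309-11518608, plus strand): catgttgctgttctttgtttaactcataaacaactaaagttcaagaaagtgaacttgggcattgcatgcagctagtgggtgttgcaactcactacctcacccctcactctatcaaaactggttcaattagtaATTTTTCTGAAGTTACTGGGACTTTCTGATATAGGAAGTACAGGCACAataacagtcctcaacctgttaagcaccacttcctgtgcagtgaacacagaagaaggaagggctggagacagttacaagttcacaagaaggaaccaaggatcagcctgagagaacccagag
Ms4a4c (chr19:11407411-11407710, plus strand): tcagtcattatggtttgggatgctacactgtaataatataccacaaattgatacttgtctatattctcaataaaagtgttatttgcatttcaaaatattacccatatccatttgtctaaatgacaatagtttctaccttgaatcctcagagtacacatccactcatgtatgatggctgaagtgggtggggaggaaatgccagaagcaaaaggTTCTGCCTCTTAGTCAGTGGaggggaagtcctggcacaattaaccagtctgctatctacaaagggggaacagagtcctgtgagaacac
Ms4a4b (chr19:11443308-11443607, plus strand): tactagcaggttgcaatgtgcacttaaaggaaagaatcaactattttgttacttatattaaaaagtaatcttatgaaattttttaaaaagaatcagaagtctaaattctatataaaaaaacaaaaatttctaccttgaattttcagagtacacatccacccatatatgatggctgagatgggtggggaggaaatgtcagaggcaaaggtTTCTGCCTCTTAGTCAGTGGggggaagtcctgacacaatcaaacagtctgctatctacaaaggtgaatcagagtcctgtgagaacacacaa
Ms4a3 (chr19:11640802-11641101, minus strand): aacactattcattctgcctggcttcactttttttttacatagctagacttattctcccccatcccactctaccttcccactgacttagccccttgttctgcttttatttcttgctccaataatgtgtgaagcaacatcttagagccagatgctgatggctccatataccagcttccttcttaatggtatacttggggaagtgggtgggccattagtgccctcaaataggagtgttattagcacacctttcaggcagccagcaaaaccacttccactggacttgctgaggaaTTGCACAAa

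The Ms4a6c and Ms4a6b windows shared an identical stretch of 48 bases, which lies at positions -49 to -2 in Ms4a6c and -118 to -71 in Ms4a6b, counted from the start site. Over the 225 bases that aligned between them, 85.3% were identical. The Ms4a4c and Ms4a4b windows were identical at 81.9% of 281 aligned bases, with a longest shared stretch of 20 bases. All other pairs among the 7 windows were identical at 58.6% to 68.1% of their aligned bases. Each window was searched on both strands for 3 motifs of myeloid transcription factors. The PU.1-type motif AGGAAGT was found in Ms4a6c, starting at position -17, and in Ms4a6b at -86, both inside the shared stretch, and a second time in Ms4a6b at -43 on the other strand. The C/EBP-type motif TTGCNNAA was found in Ms4a3 at position 42 and in Ms4a4d at -12, there on the other strand. The IRF-type motif, GAAA followed by any 2 bases and GAAA, had no match in the windows searched, and no matches of different motifs overlapped. Of the 32851 RefSeq windows of this length, 9.35% hold the first motif, 10.8% the second and 3.44% the third. These matches describe letters in a window and were not related to any binding data.

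The unit of all values is the deposited signal, a linear intensity per probe set. Signals under the floor of 62.4 (the value below which 25% of the signals lay) were raised to it before log2 was taken, and a probe set passed the filter if it was above 111 (40% of the signals lay below this) on at least 3 arrays. Of the 14 probe sets, 7 passed, which belong to 6 genes: Ms4a3, Ms4a4b, Ms4a4c (2 probe sets), Ms4a6b, Ms4a6c and Ms4a7. Just inside the filter lay the Ms4a4c probe set ending in _x_at, with a third-highest signal of 153, and just outside it the Ms4a6d probe set ending in _s_at, with 107. Folds are taken between means of log2 signals and are written "at least" where all arrays of the lower group were under the floor. Where only some were, these words are left out, although the fold also depends on the floor. Levels are compared between groups within a probe set, not between genes.

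Ms4a6c is a gene of the monocyte and macrophage lineage. Its signal was 324, 119 and 109.8 on L-GMP-derived replicates 1, 2 and 3. In L-GMP it was 2501, 3622 and 3920.1, and in GMP 2086, 2023 and 1961. The 3 groups did not overlap: L-GMP arrays were the highest, GMP arrays came next, and L-GMP-derived arrays were far below both. The means were 184 ± 121 in L-GMP-derived cells, 3348 ± 748 in L-GMP and 2023 ± 62.2 in GMP (mean ± SD, n = 3 each). The log2 difference was -3.64 ± 0.35 (SE) in L-GMP-derived cells relative to GMP, a 12.5-fold lower level. It was -4.34 ± 0.35 relative to L-GMP, a 20.3-fold lower level. Between L-GMP and GMP it was 0.70 ± 0.35, or 1.63-fold higher in L-GMP.

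Ms4a6b, a close relative of Ms4a6c, showed the same order of groups. It had signals of 255, 40.4 and 21.9 on the L-GMP-derived arrays, of which 2 were under the floor. In L-GMP it had 2094, 2839 and 2623, against 1883, 2044 and 2032 in GMP. No L-GMP-derived array came near the other groups, and the lowest L-GMP array was above the highest GMP array by a small margin. The means were 106 ± 129 in L-GMP-derived cells, 2519 ± 383 in L-GMP and 1986 ± 89.7 in GMP (mean ± SD, n = 3 each). The log2 difference of L-GMP-derived cells was -4.31 ± 0.44 (SE) relative to GMP, 19.9-fold lower, and the ratio of the group means was 0.0532. Relative to L-GMP it was -4.65 ± 0.44, 25.04-fold lower, with a ratio of the group means of 0.0420. L-GMP differed from GMP by 0.33 ± 0.44 on the log2 scale, less than its standard error.

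The spread behind these standard errors came mostly from 1 array. L-GMP-derived replicate 1 had the highest Ms4a6b and Ms4a6c of its group, and it also had the highest Mpo (myeloperoxidase, a granule enzyme of progenitors), with 3581 against 425 and 319 on replicates 2 and 3. Its Csf1r, the receptor for macrophage colony-stimulating factor, was 820.1 against 383 and 402. Other genes went the other way on this array. Its Adgre1, a macrophage gene, was 402 against 1253 and 1297, and its Cd68, another, was 175 against 228 and 240. Replicate 1 was also the least like its group over all tested probe sets, with r = 0.963 against the mean of the other two, where arrays 2 and 3 had 0.983 and 0.987. Without this array the Ms4a6b difference was -4.99 ± 0.13 relative to GMP and -5.32 ± 0.13 relative to L-GMP. The Ms4a6c difference was then -4.15 ± 0.17 relative to GMP and -4.85 ± 0.17 relative to L-GMP. The difference of L-GMP from GMP kept its size and had a smaller error, 0.70 ± 0.15 for Ms4a6c and 0.33 ± 0.12 for Ms4a6b. The part of other cells on this array in these values was not tested.

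**Figure D1:**
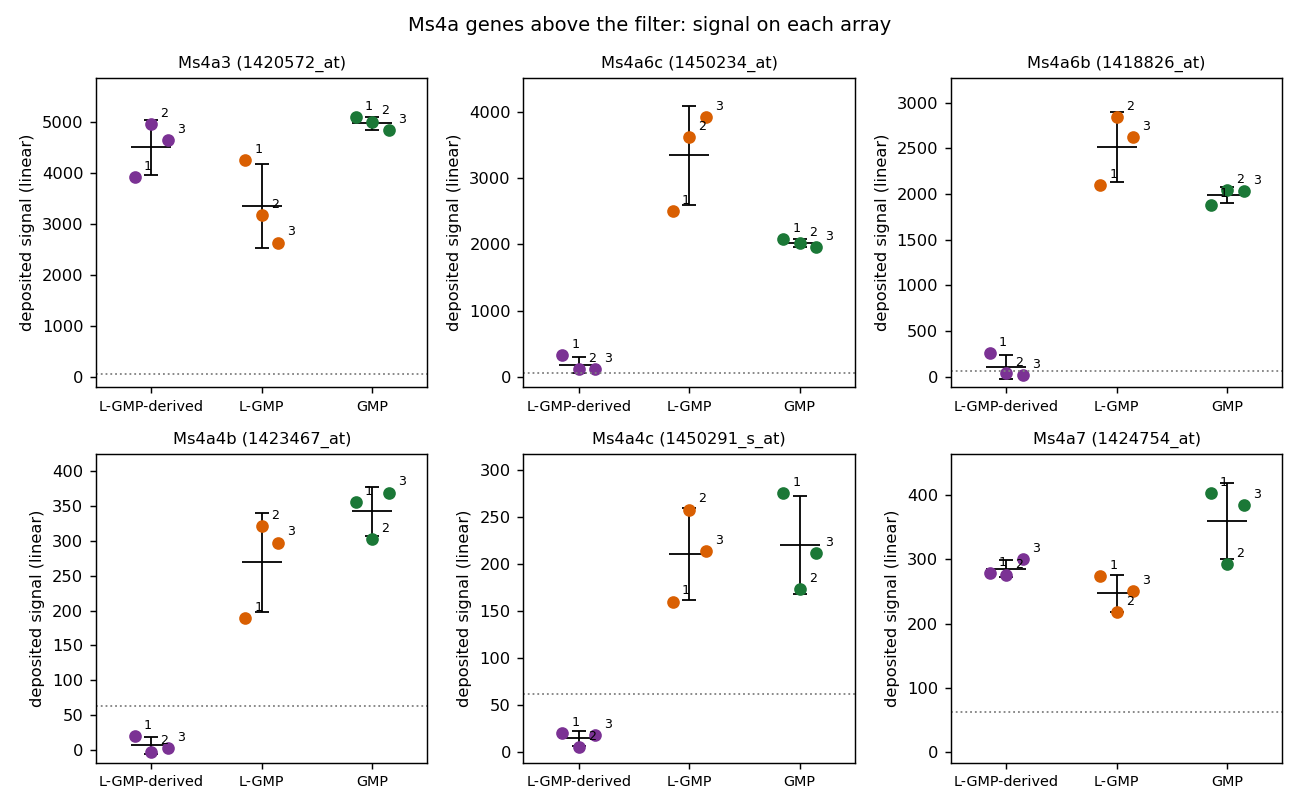
Deposited signal (linear, one axis per panel) of the 6 Ms4a genes that passed the filter, each by its brightest probe set, on every array. Points are arrays with their replicate number, black bars are the mean ± SD (n = 3), and the dotted line is the floor of 62.4. The L-GMP-derived arrays lie far below the others for Ms4a6c, Ms4a6b, Ms4a4b and Ms4a4c and within reach of them for Ms4a3 and Ms4a7.

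Ms4a4b is known in mouse T cells, where it modulates proliferation. Its brighter probe set had 20.1, -2.48 and 2.43 in L-GMP-derived cells. It had 189, 321 and 297 in L-GMP, against 356, 303 and 369 in GMP. All 3 L-GMP-derived arrays were under the floor, and the L-GMP and GMP arrays overlapped. The level in L-GMP-derived cells was at least 5.46-fold lower than in GMP (log2 difference -2.45 ± 0.19, SE) and at least 4.20-fold lower than in L-GMP (-2.07 ± 0.19). L-GMP differed from GMP by -0.38 ± 0.19 on the log2 scale. The other Ms4a4b probe set was under the floor on all 9 arrays, so the statement rests on 1 probe set.

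Ms4a4c, known from mouse monocytes and macrophages, was measured by 2 probe sets that passed the filter. The brighter one, ending in _s_at, had 20.1, 5.98 and 18.6 in L-GMP-derived cells. It had 160.2, 258 and 214 in L-GMP, against 275, 173 and 212 in GMP. The L-GMP-derived arrays were all under the floor, and L-GMP and GMP overlapped over most of their range. The level in L-GMP-derived cells was at least 3.46-fold lower than in GMP (log2 difference -1.79 ± 0.20, SE) and at least 3.31-fold lower than in L-GMP (-1.73 ± 0.20). The other, ending in _x_at, had 66.6, 93.9 and 80.9 in L-GMP-derived cells. It had 134, 162 and 139 in L-GMP, against 162, 142 and 153 in GMP. It showed the same order with a smaller fold, 1.91-fold lower in L-GMP-derived cells than in GMP and 1.81-fold lower than in L-GMP. Probe sets with these name endings can bind related transcripts, and the Ms4a4 genes are close relatives.

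Ms4a3, whose human counterpart HTm4 is known as a cell cycle regulator of blood progenitors, was above the filter on all arrays. Its signal was 3906, 4944 and 4635 in L-GMP-derived cells. It was 4239.6, 3171 and 2629.5 in L-GMP, against 5083, 4998 and 4828 in GMP. Every L-GMP array was below every GMP array, while the L-GMP-derived arrays overlapped both. The level in L-GMP was 1.51-fold lower than in GMP (log2 difference -0.60 ± 0.15, SE). The L-GMP-derived level differed by -0.15 ± 0.15 from GMP and by 0.45 ± 0.15 from L-GMP on the log2 scale, and was 1.36-fold higher than in L-GMP. Leaving out single arrays gave log2 differences between -0.78 and -0.44 for L-GMP relative to GMP.

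Ms4a7, a macrophage gene, was above the filter on every array. It had 279, 276 and 300.5 in L-GMP-derived cells. It had 275, 218 and 250.2 in L-GMP, against 403, 292 and 384 in GMP. All L-GMP arrays were below all GMP arrays, and the L-GMP-derived arrays lay between, just above the L-GMP range and overlapping the GMP range. The L-GMP level was 1.45-fold lower than in GMP (log2 difference -0.53 ± 0.15, SE). L-GMP-derived cells differed by -0.32 ± 0.15 from GMP and by 0.21 ± 0.15 from L-GMP.

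Within L-GMP, replicate 1 had the lowest Ms4a6b, Ms4a6c, Ms4a4b and Ms4a4c and the highest Ms4a3 and Ms4a7. Without it, Ms4a6c was 1.86-fold higher in L-GMP than in GMP, and the Ms4a3 difference was -0.78. The sign of the small Ms4a4c difference between L-GMP and GMP turned, with 0.12 by its brighter probe set. The order of the 3 groups by mean was L-GMP, GMP, L-GMP-derived for Ms4a6b and Ms4a6c, and GMP, L-GMP, L-GMP-derived for Ms4a4b and Ms4a4c. For Ms4a3 and Ms4a7 it was GMP, L-GMP-derived, L-GMP. Neighbors in these orders whose arrays overlapped were L-GMP and GMP for Ms4a4b and Ms4a4c, and L-GMP-derived and GMP for Ms4a3 and Ms4a7. L-GMP-derived and L-GMP arrays also overlapped for Ms4a3.

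**Figure D2:**
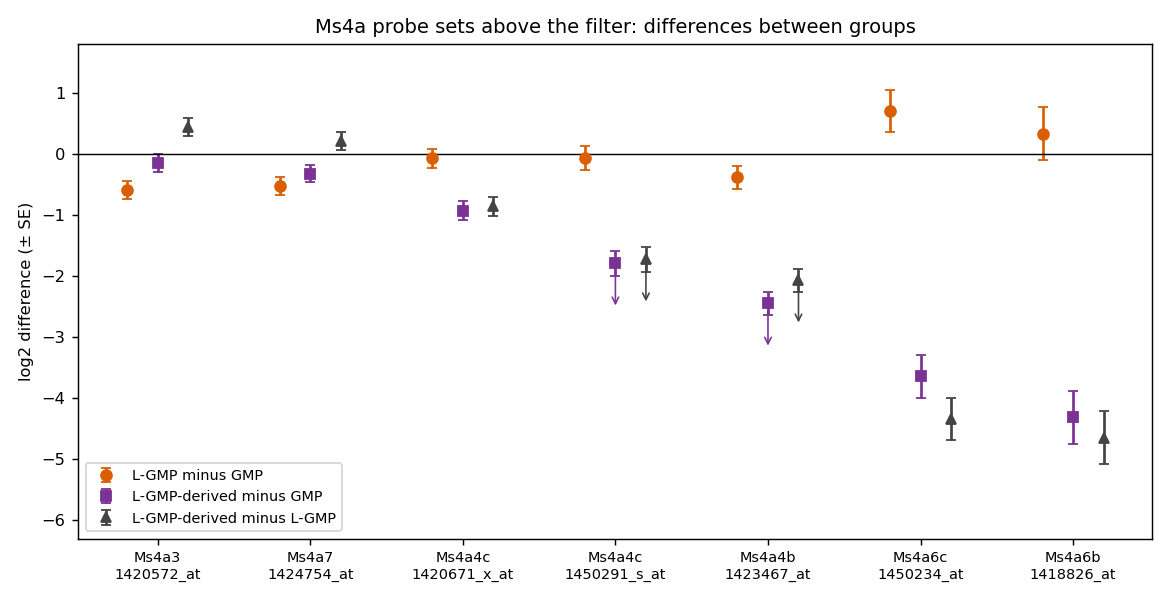
Differences between groups (log2 scale, first group minus second) of the 7 Ms4a probe sets that passed the filter; bars are standard errors of the fit over 9 arrays, and arrows mark values that are bounds because all 3 arrays of the lower group were under the floor. Ms4a6c and Ms4a6b in L-GMP-derived cells lie between -3.64 and -4.65, while Ms4a3 and Ms4a7 stay within -0.60 and 0.45 in all 3 comparisons.

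As background to these differences, the shares of the 8965 tested genes past an adjusted p of 0.05 were large. In L-GMP relative to GMP, 13.1% were called higher and 12.8% lower, and 2 of the 6 Ms4a genes (Ms4a3 and Ms4a7) were among the lower. These 2 calls became fewer under 6 of 18 alternatives, so they are not firm. In L-GMP-derived cells relative to GMP, 13.4% were called higher and 10.7% lower, and 4 of the 6 (Ms4a4b, Ms4a4c, Ms4a6b and Ms4a6c) were among the lower. In L-GMP-derived cells relative to L-GMP, 16.6% were called higher and 14.1% lower, with Ms4a3 among the higher and the same 4 genes among the lower; the Ms4a3 call was lost under 11 of 18 alternatives, among them the omission of single arrays, so it is not firm. Because the family was chosen by these comparisons, these calls are no tests of its members. Nothing is read from these counts or from the alternatives that kept or lost a call. The 3 comparisons also share arrays with each other.

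The 3 genes that did not pass the filter had no usable fold. Ms4a1, which encodes CD20, had 60.2 to 90.4 in L-GMP-derived cells, 54.9 to 71.7 in L-GMP and 64.0 to 74.5 in GMP by its brighter probe set, and was under the floor on all arrays by the other. Ms4a4d had 14.5 to 18.7 in L-GMP-derived cells, 13.5 to 22.1 in L-GMP and 16.6 to 18.5 in GMP, all under the floor. Ms4a6d, a macrophage gene, came closest to passing. Its probe set ending in _s_at had 55.0, 50.4 and 18.4 in L-GMP-derived cells. It had 106, 98.0 and 65.1 in L-GMP, against 136, 123 and 107 in GMP. All L-GMP-derived arrays were under the floor, and every GMP array was above every L-GMP array by a narrow margin. A second Ms4a6d probe set had 83.8 to 96.6 in L-GMP-derived cells, -98.2 to 79.96 in L-GMP and 67.9 to 97.6 in GMP, and the remaining one was under the floor on all arrays.

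**Figure D3:**
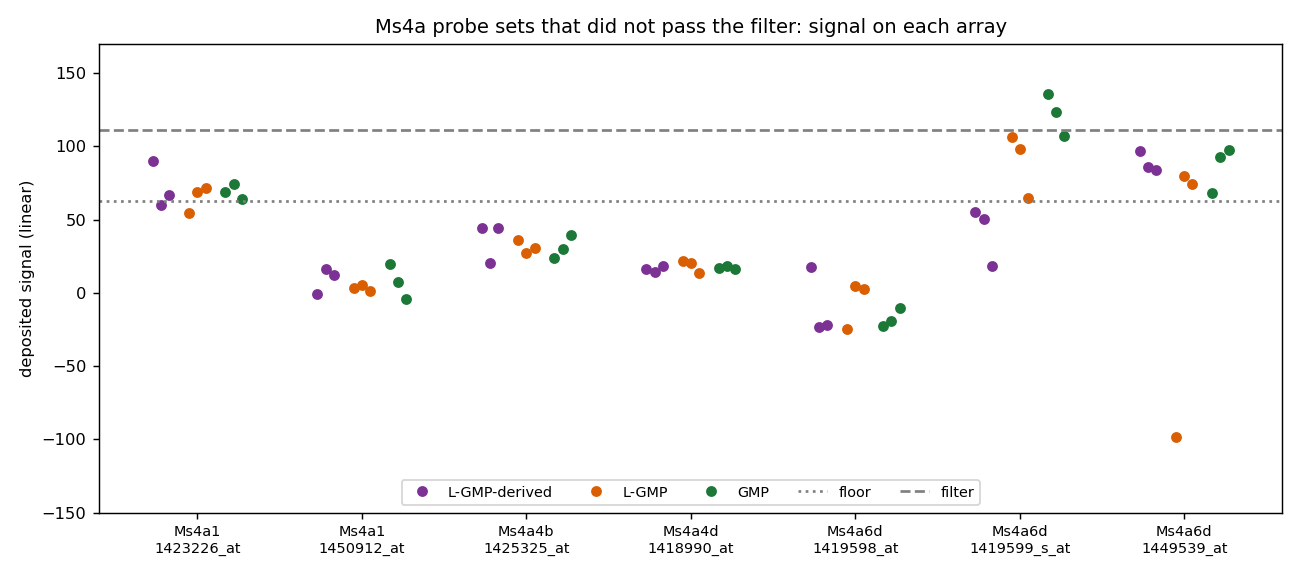
Deposited signal (linear) on each array of the 7 Ms4a probe sets that did not pass the filter; points are arrays, the dotted line is the floor of 62.4 and the dashed line the filter of 111. Only Ms4a6d by its _s_at probe set has arrays above the filter, 2 of them, both GMP.

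Across the 9 arrays the members were correlated in the same pairs. Pearson's r of log2 signals was 0.994 between Ms4a6b and Ms4a6c and 0.982 between Ms4a4b and Ms4a4c. Between an Ms4a4 and an Ms4a6 gene it was 0.929 to 0.938. Ms4a3 and Ms4a7 had r = 0.704 with each other and between -0.42 and 0.19 with the other 4. These values describe 9 arrays that fall into 3 groups, so they mostly restate the differences between groups. For Ms4a4b and Ms4a4c, all 3 L-GMP-derived arrays were set to the same floor. The Ms4a4c probe set, ending in _s_at, can also bind related transcripts. The part of either in their r was not tested.

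The genes outside the family with the most similar pattern over the same 9 arrays were ranked by the same r among tested genes. For Ms4a6c they were Ly86, Gria3, Aftph, Lims1 and Phf7, from 0.994 to 0.987. Ly86, which encodes MD-1, the partner of the Toll-like receptor homolog RP105, had mean signals of 670.4 in L-GMP-derived cells, 3430 in L-GMP and 2248 in GMP. For Ms4a6b they were Bex6, Mpeg1, Anxa1, Nckap1l and Aftph, from 0.995 to 0.988. Mpeg1, the pore-forming protein of macrophages, averaged 85.4 in L-GMP-derived cells, 1037 in L-GMP and 933 in GMP. Anxa1, a phospholipid-binding annexin, averaged 339 in L-GMP-derived cells, 5368 in L-GMP and 5044 in GMP. Their lower mean in L-GMP-derived cells follows from ranking them by likeness to Ms4a6b and Ms4a6c and is no separate result.

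For Ms4a4b the most similar were Pdcd4, Arap2, Chdh, Satb1 and Trim34a (r from 0.985 to 0.982). Satb1, a chromatin organizer, averaged 48.0 in L-GMP-derived cells, 1191 in L-GMP and 1071 in GMP. For Ms4a4c they were Pold3, Mettl7a2, Epha1, Cd84 and Tmsb10 (0.980 to 0.973). For Ms4a3 they were Cfap20, Ptpn12, Mpp6, Irak1bp1 and Cdc6 (0.974 to 0.966). Cdc6, which loads the replicative helicase, averaged 670.0 in L-GMP-derived cells, 555 in L-GMP and 689.9 in GMP. For Ms4a7 they were Fn1, Ak3, Ift22, Zfp142 and Nvl (0.945 to 0.917). The r values of Ms4a7 were the lowest of the 6 members. Here too, the order of group means of the genes named follows from ranking them by likeness and is no separate result.

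The position of the genes in the cluster was set beside their behavior. In RefSeq's GRCm38.p6 annotation 21 Ms4a genes lie on chromosome 19, of which 12 had a named probe set here. Ms4a4c, Ms4a4b, Ms4a6c and Ms4a6b follow each other directly in this order, and all 4 were low in L-GMP-derived cells. Ms4a7 lies on one side of them, with Ms4a4a between. Ms4a4d and Ms4a6d, which did not pass the filter, lie on the other, followed by Ms4a2 and by Ms4a3 at the end. By its dim _s_at probe set Ms4a6d was also lowest in L-GMP-derived cells, but not by its second probe set. The remaining Ms4a genes with a probe set, Ms4a2, Ms4a8a and Ms4a10, did not pass the filter. Ms4a2, the IgE receptor chain of mast cells and basophils, had 47.7 to 65.3 in L-GMP-derived cells, 59.4 to 70.03 in L-GMP and 84.4 to 94.4 in GMP.

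Of 8 tested genes among the nearest 10 on each side of the cluster and those inside it, 3 fell in L-GMP relative to GMP and 3 fell in L-GMP-derived cells relative to GMP. Relative to L-GMP, 2 rose and 2 fell in L-GMP-derived cells (limma, adjusted over all tested probe sets). Over all tested genes, 12.8% and 10.7% fell in the 2 comparisons with GMP. Relative to L-GMP, 16.6% of them rose and 14.1% fell. Stx3, a syntaxin of membrane fusion beyond the Ms4a3 end, averaged 145 ± 49.8 in L-GMP-derived cells, 1137 ± 323 in L-GMP and 948 ± 25.9 in GMP (mean ± SD, n = 3 each). It fell 6.80-fold in L-GMP-derived cells relative to GMP (limma adjusted p = 4.79e-05) and 7.91-fold relative to L-GMP (2.71e-05). Mrpl16, a mitochondrial ribosomal protein gene between Ms4a3 and Stx3, went the other way: it averaged 652 ± 106 in L-GMP-derived cells and 405 ± 29.3 in L-GMP (SD, n = 3 each), 1.60-fold higher (limma adjusted p = 0.00533). Prpf19, a splicing factor gene on the Ms4a10 side, fell 1.46-fold in L-GMP relative to GMP (limma adjusted p = 0.000996). Tmem109, on the same side, fell 1.65-fold in L-GMP-derived cells relative to GMP (limma adjusted p = 0.00883). Relative to L-GMP it fell 1.56-fold (limma adjusted p = 0.0127), a call lost under 3 of 18 alternatives.

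**Figure D4:**
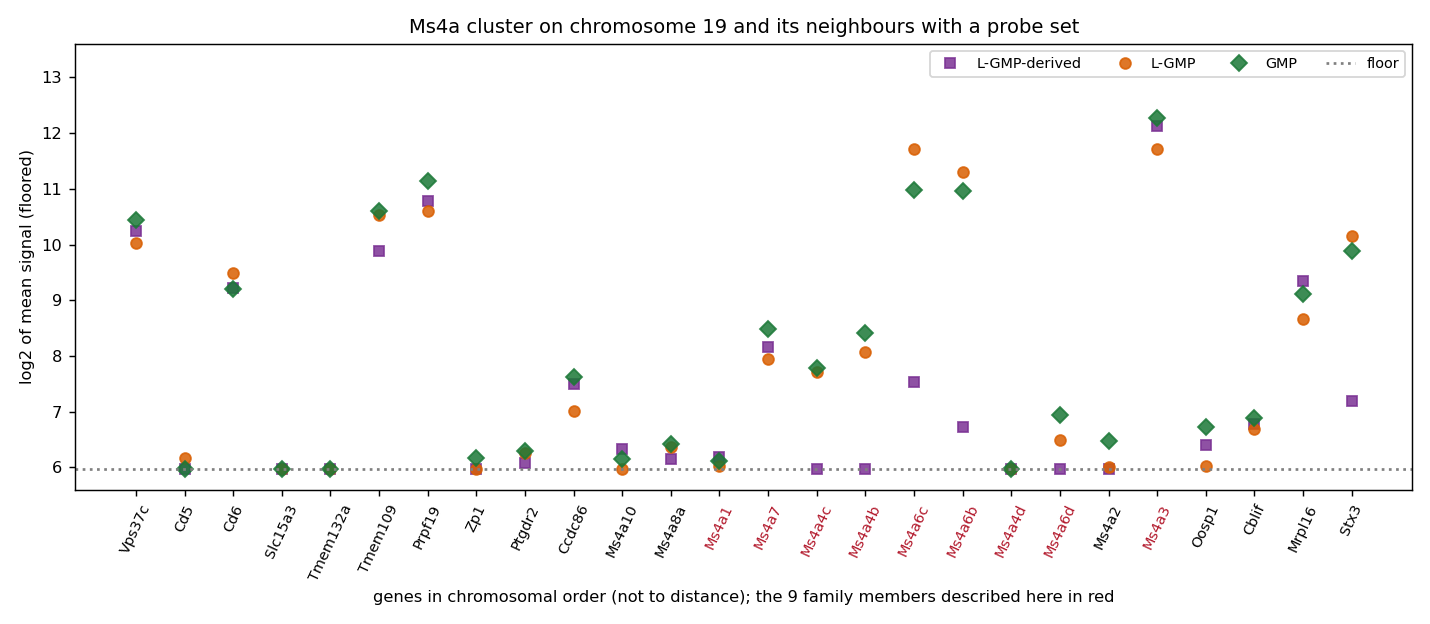
Log2 of the group mean signal, floored at 62.4, of the Ms4a genes and neighboring genes with a named probe set, in their order along chromosome 19 and not to distance. Squares are L-GMP-derived cells, circles L-GMP and diamonds GMP (means of 3 arrays), to be read within a gene. The squares of Ms4a4c, Ms4a4b, Ms4a6c and Ms4a6b lie below the other groups, and those of Ms4a7 and Ms4a3 do not. Those of Stx3 and Tmem109 also lie below, as do those of some genes near the floor, such as Ms4a6d.

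Tmem176a and Tmem176b, distant relatives of the family that lie elsewhere in the genome, were compared as genes outside the chosen 9; their values were known from earlier results of these arrays. They behaved differently from the Ms4a4 and Ms4a6 genes, being low in both leukemic groups. Tmem176b averaged 92.5 ± 39.4 in L-GMP-derived cells, 121 ± 17.3 in L-GMP and 2375 ± 36.2 in GMP (mean ± SD, n = 3 each). It fell 19.7-fold in L-GMP relative to GMP (limma adjusted p = 9.20e-07). In L-GMP-derived cells it fell 26.9-fold relative to GMP, with a ratio of the group means of 0.0390 (limma adjusted p = 4.92e-07). Tmem176a fell at least 9.68-fold in both comparisons with GMP by its brighter probe set (limma adjusted p = 5.40e-08 and 6.30e-08). Its dimmer probe set was 1.45-fold lower in L-GMP (limma adjusted p = 0.0172) and 1.32-fold lower in L-GMP-derived cells (0.0600). Between L-GMP-derived cells and L-GMP, 0 of the 2 genes were called by limma, also at an unadjusted p under 0.05. The shares over all tested genes in this comparison were 16.6% higher and 14.1% lower. Tmem176a could not be called there, because its brighter probe set was under the floor on all arrays of both groups. Without L-GMP-derived replicate 1, Tmem176b was called lower there (limma adjusted p = 0.00321). Its adjusted p ranged from 0.00321 to 0.902 over all alternatives.

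The labels were set beside markers of the cells. Elane and Ctsg, granule proteases of progenitors, were high in all groups, with Elane at 6162 ± 467 in L-GMP-derived cells, 6734 ± 1204 in L-GMP and 6419 ± 350.1 in GMP (mean ± SD, n = 3 each). Ctsg averaged 8921 ± 303, 6101 ± 861 and 8259 ± 79.9 in the same order. Mpo did not stay high, with 1442 ± 1853 in L-GMP-derived cells against 9366 ± 129 in GMP. Of 10 tested progenitor granule genes, 3 were called lower in L-GMP-derived cells than in GMP and 0 higher (limma). Over all tested genes these shares were 10.7% and 13.4%. Kit, a surface receptor of progenitors, averaged 93.9 ± 23.5, 657 ± 99.4 and 816 ± 41.7 in L-GMP-derived cells, L-GMP and GMP (SD, n = 3 each). Cd34, another surface marker of GMP, was under the floor on all 3 L-GMP-derived arrays, and had 189 to 436 in L-GMP and 495 to 631 in GMP. Arrays of the same group had r from 0.958 to 0.991 over tested probe sets and arrays of different groups from 0.898 to 0.928. The beta-actin 3′ to 5′ ratio, a measure of RNA or labelling quality, was 7.10 ± 0.140 in L-GMP-derived cells, 5.17 ± 0.355 in L-GMP and 7.37 ± 0.648 in GMP (mean ± SD, n = 3 each), so it moved with L-GMP, and its part in the L-GMP differences was not tested.

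Genes of monocytes and macrophages moved in both directions. Of 13 tested genes of this list, 4 rose and 4 fell in L-GMP relative to GMP. In L-GMP-derived cells, 2 rose and 6 fell relative to GMP, and 8 fell relative to L-GMP, in which comparison 14.1% of all tested genes were called lower. Relative to GMP, 13.1% of all tested genes rose and 12.8% fell in L-GMP, and 13.4% rose and 10.7% fell in L-GMP-derived cells. Csf1r fell 11.5-fold in L-GMP-derived cells relative to GMP and 9.29-fold relative to L-GMP (limma adjusted p = 4.00e-06 and 8.30e-06). F13a1, the coagulation factor chain made by monocytes, fell 24.6-fold and 6.77-fold in the same comparisons (limma adjusted p = 2.71e-06 and 8.73e-05). Adgre1, which encodes the macrophage antigen F4/80, rose 8.17-fold in L-GMP relative to GMP (limma adjusted p = 0.000177), and Cd68, a lysosomal protein of macrophages, rose 3.80-fold (6.04e-06). Klf4, a transcription factor of monocytes, fell 7.10-fold in L-GMP (limma adjusted p = 0.000199). The median log2 difference of the list in L-GMP-derived cells was -0.47 relative to GMP and -0.81 relative to L-GMP, where the median over all tested genes was 0.0044 and -0.0040. The summed signal of the list was 6790 to 8594 in L-GMP-derived cells, 18991 to 20855 in L-GMP and 23113 to 24268 in GMP, and Mrc1 was under the floor on all arrays.

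Among 10 progenitor granule genes, 4 fell in L-GMP and 3 fell in L-GMP-derived cells relative to GMP, where 12.8% and 10.7% of all tested genes fell. Relative to L-GMP, 3 rose and 2 fell in L-GMP-derived cells, against 16.6% and 14.1% of all tested genes. Cebpa, a transcription factor that GMP depend on, fell 3.47-fold in L-GMP relative to GMP (limma adjusted p = 0.000160). It rose 2.43-fold in L-GMP-derived cells relative to L-GMP (limma adjusted p = 0.00119). By mean its groups had the order of both Ms4a3 and Ms4a7, and a link to either gene was not tested. Mpo fell 11.9-fold in L-GMP-derived cells relative to GMP (limma adjusted p = 0.00407). Nkg7, a granule protein gene that is also on the T and NK cell list, fell 9.03-fold in the same comparison (limma adjusted p = 6.30e-08).

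Markers of lymphoid cells were examined because Ms4a1 and Ms4a4b are known from B and T cells. The shares of all tested genes to set beside their counts were 13.1% higher and 12.8% lower in L-GMP relative to GMP. For L-GMP-derived cells they were 13.4% and 10.7% relative to GMP, and 16.6% and 14.1% relative to L-GMP. Of 4 tested B cell genes, 0 were called by limma in L-GMP relative to GMP, also at an unadjusted p under 0.05, and 1 was called higher without L-GMP-derived replicate 1. Cd79b, a chain of the B cell receptor, fell in L-GMP-derived cells 2.82-fold relative to GMP and 4.70-fold relative to L-GMP (limma adjusted p = 0.0126 and 0.00110), as the only 1 of the 4 in each. The summed signal of the B cell list was 2922 to 3466 in L-GMP-derived cells, 3231 to 3389 in L-GMP and 3203 to 3400 in GMP, and Pou2af1 and Fcrla were under the floor on all arrays. Of 6 tested T and NK cell genes, 1 fell in L-GMP, and 1 rose and 1 fell in L-GMP-derived cells, relative to GMP; relative to L-GMP, 1 rose and 2 fell. Without L-GMP-derived replicate 1, 2 fell relative to GMP and 3 relative to L-GMP. Thy1, a surface glycoprotein of T cells and some progenitors, averaged 359 ± 212 in L-GMP-derived cells, 31.9 ± 8.71 in L-GMP and 38.8 ± 11.8 in GMP (mean ± SD, n = 3 each), at least 4.83-fold higher than in GMP (limma adjusted p = 0.00341). The T and NK cell sum was 1785 to 2076 in L-GMP-derived cells, 2905 to 3429 in L-GMP and 3743 to 4013 in GMP, carried in large part by Nkg7. Without Nkg7, left out after seeing the data, the sum of the other 11 genes was 1538 to 1790.0 in L-GMP-derived cells. It was 1450 to 1565 in L-GMP and 1354 to 1488 in GMP. Thy1, higher in L-GMP-derived cells, is among these 11 genes. The part of T cells in the Ms4a4b level was not tested.

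Of 7 tested late neutrophil genes, 0 were called by limma in L-GMP relative to GMP, with 2 higher at an unadjusted p under 0.05 and 3 called higher without L-GMP-derived replicate 1. In L-GMP-derived cells 2 fell relative to GMP and 4 relative to L-GMP. Camp, an antimicrobial peptide of neutrophil granules, fell 38.04-fold relative to L-GMP (limma adjusted p = 0.000140). Their summed signal ranged from 990.2 to 8806 in L-GMP-derived cells, 21231 to 44623 in L-GMP and 9804 to 25661 in GMP. Of 7 mast cell, basophil and eosinophil genes, 2 rose and 1 fell in L-GMP, and 1 rose and 4 fell in L-GMP-derived cells, relative to GMP; 4 fell relative to L-GMP. Prg2, the eosinophil major basic protein, rose 14.4-fold in L-GMP relative to GMP (limma adjusted p = 6.53e-05), and the sum of this list was 1991 to 2907 in L-GMP-derived cells, 6852 to 9380.5 in L-GMP and 2979 to 3399 in GMP. Of 5 erythroid and megakaryocyte genes, 0 were called in L-GMP relative to GMP, also at an unadjusted p under 0.05, and 1, Itga2b, fell in both comparisons of L-GMP-derived cells. Of 4 dendritic cell genes, 2 fell in L-GMP and 1 rose and 1 fell in L-GMP-derived cells relative to GMP, and 1 rose relative to L-GMP. H2-Aa, an MHC class II chain, fell 5.38-fold in L-GMP relative to GMP (limma adjusted p = 1.07e-05). Over all tested genes, 13.1% were called higher and 12.8% lower in L-GMP relative to GMP. For L-GMP-derived cells the shares were 13.4% and 10.7% relative to GMP, and 16.6% and 14.1% relative to L-GMP. The part of the cells that these lists mark in the Ms4a levels was not tested.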

How the data were processed

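The authors deposited one linear signal intensity per probe set and array; the submitters' processing notes name MAS5 (version 5) and nothing further. Of 204210 values, 1917 were negative, which MAS5's own signal would not be, so the summary step behind the unit is not settled. The members and the 9 gene lists were chosen with earlier results of these data known. The genes named are the members, the other Ms4a genes, up to 3 called genes of each list and comparison with the largest change (or the 2 brightest where none was called), and the 5 genes most like each member; Kit, Cd34, Elane and Ctsg were added after seeing the data. Gene names came from the platform annotation (20393 probe sets with 1 symbol, 691 with several, 1606 with none); 20364 matched RefSeq by Entrez ID. The probe set with the highest mean log2 signal represents its gene.

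Values were floored, logged and filtered as described above; 14578 probe sets were tested, after leaving out 64 controls, with limma 3.58.1 (lmFit, eBayes with an intensity trend; R 4.3.3) on all 9 arrays, two-sided, with Benjamini-Hochberg adjustment. The fit was tested on simulated data. Promoter windows were aligned with Biopython 1.88 (match 1, mismatch -1, gap -3, extension -0.5). Scaling, floor, filter, trend, arrays in the fit, choice of probe set, a block for replicate numbers and leaving out single arrays were the alternatives. The number of arrays limits the precision.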

Additional observations from a re-analysis of the deposited data

How the results depend on the processing

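Of 306 alternative values of the member differences, 0 changed sign where the main difference was larger than 1 SD between arrays. Smaller differences did change sign, such as that of Ms4a4c in L-GMP relative to GMP. Of the 306 values, 283 moved by less than 1 SD and 23 moved by more. Of these moves 20 were of Ms4a4b and Ms4a4c in comparisons of L-GMP-derived cells; the other 3 were in L-GMP relative to GMP, of Ms4a6b (0.02) and the second Ms4a4c probe set (0.07) with a replicate block and of Ms4a4b by its second probe set. By choice, 10 moves came with another floor, 9 with the choice of probe set and 4 with the replicate block. With the floor at the 10th percentile Ms4a4b was 12.1-fold lower than in GMP and with the floor at the 40th percentile 3.06-fold lower; its second probe set gave no difference. Nothing is read from the member calls, which these arrays chose. In L-GMP relative to GMP the 2 lower calls became 0 with no filter and with a replicate block and 1 without L-GMP replicate 2, L-GMP replicate 3, GMP replicate 1 or GMP replicate 3, and 1 higher call was added with only the 6 arrays compared and without L-GMP-derived replicate 1. The 1 higher call in L-GMP-derived cells relative to L-GMP, Ms4a3, was lost under 11 of 18 alternatives. The count of probe sets past the threshold was 3777 in L-GMP relative to GMP and fell to 1916 with a replicate block; in L-GMP-derived cells relative to GMP it was 3551 and fell to 1750, and relative to L-GMP it was 4354 and became 3272. Same-numbered arrays had correlations of deviations from -0.309 to 0.170. Deviations from a mean of 3 arrays depend on each other, so these values cannot decide whether the numbers pair the arrays. The labels do not state it, and 1 GMP array has no number. With arrays left out in turn the 3 counts ranged from 2475 (without GMP replicate 3) to 4904, from 2306 (without GMP replicate 3) to 4456 and from 3341 (without L-GMP replicate 2) to 5478, the highest each time without L-GMP-derived replicate 1. Of 1167 alternative values of named list genes, 1110 kept direction and call, 54 lost the call, 2 gained one and 1 turned sign: Pf4 in L-GMP relative to GMP, not called, between -0.26 (without L-GMP replicate 2) and 0.00455 (without L-GMP replicate 3). H2-Ab1, Mrpl16, Ccdc86 and S100a9 lost a call most often. Mpo in L-GMP-derived cells relative to L-GMP had an adjusted p of 0.00930, and 0.0653 with no filter, the highest of a range that begins at 9.70e-08. Values near the floor limit the folds of dim genes.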
